A study of Mus musculus with 2 samples.

Results

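Cell migration and tissue residency were examined through 9 listed genes in lung group 2 innate lymphoid cells (ILC2s): the chemokine receptors Cxcr4, Cxcr6, Ccr4, Ccr8, Ccr2 and Ccr9, the oxysterol receptor Gpr183, the integrin chain Itgae and the membrane protein Cd69. The genes were chosen by name, with earlier results of these data known, and all 9 were among the 32285 features of both count matrices. Their levels were compared between 2 libraries of single cells, 1 from WT mice and 1 from Pac1-/- mice, and, within each library, between barcodes with and without a transcript of Il5, Il13 or S1pr1. Pac1, listed as Dusp2, encodes a phosphatase of MAP kinases that is induced in activated immune cells, and Pac1-/- mice lack it in all cells, not in ILC2s alone. Mice were 6 to 8 weeks old, and lung cells of 4 to 5 mice per genotype were mixed before sorting, so that no mouse could be told from another. The sort took lineage-negative cells that stained for Sca-1, the IL-33 receptor ST2 and CD90.2, and 13000 of them were loaded per genotype. The labels did not say whether these mice had been challenged.

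ILC2s are lymphocytes without antigen receptors that live mostly within tissues and secrete IL-5 and IL-13, which act on eosinophils, goblet cells and smooth muscle. Chemokine receptors couple to inhibitory G proteins and steer cells toward the source of their ligand. Retention depends in part on CD69, which binds the sphingosine 1-phosphate receptor S1PR1 and removes it from the surface, so that a cell stops following the lipid gradient that leads out of tissue.

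Barcodes were kept where 500 or more genes were detected and mitochondrial transcripts made up no more than 10%, which left 8394 of 10866 in WT and 7087 of 9495 in Pac1-/-. They carried 54579034 and 58338886 unique molecular identifiers (UMIs, each counting 1 captured transcript), with medians of 4186 and 5577 per barcode. The Pac1-/- library was thus deeper per barcode, and shares of barcodes were therefore taken after each barcode had been thinned at random to 1500 UMIs, which left 7634 WT and 6564 Pac1-/- barcodes. Pac1 itself had 1419 UMIs in the WT and 5 in the Pac1-/- library. By their markers the barcodes were ILC2s, since 3 or more of the ILC2 markers were present in 96.6% of barcodes in WT and in 96.3% in Pac1-/-. Summed markers of T cells reached 18.8 and 9.19 CPM (the UMIs of a gene after each library's total was scaled to the same size) in WT and Pac1-/-, with Cd8a at 0 in both, those of B cells 60.2 and 78.3 CPM and those of erythroid cells 61.3 and 205 CPM. Without barcodes that held 2 or more markers of another type, Ccr8 and Gpr183 were still the 2 members past 1.5-fold between genotypes (log2 ratios of -1.17 and -1.04), and Cxcr4 stood at 0.35 and Ccr9 at 0.23. Genes that are not members were not run without these barcodes. Doublets were not called. Over 2 times the library's median UMIs were held by 21.5% of barcodes in WT and 19.4% in Pac1-/-. The libraries shared 29 barcode sequences, 15 of them among kept barcodes. With 1 library per genotype there is no replicate, so no p-value was computed, and every interval (95%) covers counting error only.

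Cd69 had the highest level of the 9 genes in both libraries, and Itgae had the lowest. Levels are CPM of UMIs taken from the 3′ end of transcripts, a scale on which genes of unlike length can be compared to a first order. Cd69 stood at 1401 CPM (1391 to 1411) in WT and 1581 CPM (1571 to 1592) in Pac1-/-. Ccr2, the receptor for CCL2 and related chemokines that draws cells out of bone marrow and into inflamed tissue, came second with 606 CPM (599 to 612) and 693 CPM (687 to 700.0). Cxcr6, whose ligand CXCL16 is made in lung and liver, followed with 314 CPM (309 to 318) and 327 CPM (322 to 332). These 3 genes kept their places in both libraries.

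The other 6 genes lay below 200 CPM. Gpr183, which follows oxysterols made from cholesterol, stood at 182 CPM (178 to 185) in WT and 99.7 CPM (97.2 to 102) in Pac1-/-. Ccr8, the receptor for CCL1 and, in mice, CCL8, stood at 118 CPM (115 to 121) and 59.9 CPM (58.0 to 61.9). In WT it was the fifth of the 9 genes and in Pac1-/- the seventh. Cxcr4, the receptor for CXCL12 that holds cells in bone marrow, stood at 53.7 CPM (51.8 to 55.7) and 79.4 CPM (77.1 to 81.7). Ccr9, which guides lymphocytes to the small intestine through CCL25, stood at 49.0 CPM (47.2 to 50.9) and 67.1 CPM (65.0 to 69.2). Ccr4, the receptor for CCL17 and CCL22 shared with Th2 cells, stood at 20.7 CPM (19.5 to 21.9) and 24.4 CPM (23.1 to 25.7). Itgae, which encodes the CD103 chain that pairs with the β7 integrin and binds E-cadherin, stood at 1.70 CPM (1.38 to 2.09) and 1.58 CPM (1.27 to 1.93), from 93 and 92 UMIs. No 2 neighbours in the order had overlapping intervals in either library.

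**Figure D1:**
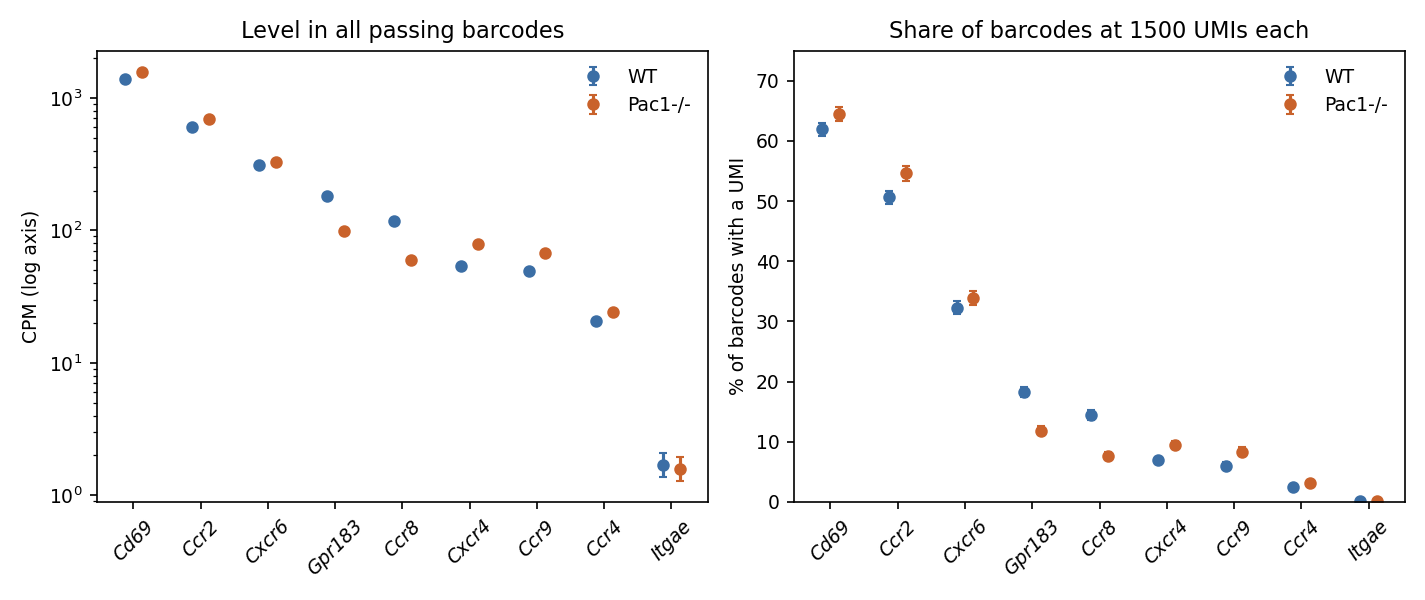
Left, level of each gene in CPM on a log axis over all kept barcodes; right, percentage of barcodes with at least 1 UMI after thinning to 1500 UMIs; points are 1 library each (blue WT, orange Pac1-/-) and bars are 95% counting intervals. Cd69 was highest at 1401 and 1581 CPM, and Gpr183 and Ccr8 were the 2 genes whose Pac1-/- points lay well below their WT points.

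At matched depth, Cd69 was seen in 62.0% of WT barcodes (60.9 to 63.1) and 64.5% of Pac1-/- barcodes (63.3 to 65.6), and Ccr2 in 50.6% (49.5 to 51.8) and 54.6% (53.4 to 55.8). Cxcr6 was seen in 32.3% (31.3 to 33.4) and 33.8% (32.7 to 35.0). Cd69 was the only gene of the 9 that often gave many UMIs per barcode: 5 or more were found in 14.0% of barcodes in WT and 16.7% in Pac1-/-, and the highest counts were 35 and 30. Its variance was 3.83 and 4.06 times its mean, against 1.77 and 1.5 times for Gpr183, 1.71 and 1.74 times for Ccr2, 1.44 and 1.44 times for Ccr9 and 1.08 and 1.30 times for Cxcr4. Pure counting noise gives a variance equal to the mean. This ratio grows with the mean, which was highest for Cd69 (2.02 and 2.28 UMIs per barcode), so it does not rank the genes by how unevenly they were spread.

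Shares varied with the depth of a barcode before thinning. When barcodes of each library were split into 3 equal bins by UMIs before thinning, Cd69 was seen in 60.6%, 51.9% and 73.4% of the shallowest, middle and deepest WT bin, and in 62.4%, 56.9% and 74.1% of the Pac1-/- bins. The middle bin was lowest in both libraries. Ccr8 ran from 11.2% in the shallowest WT bin to 16.0% and 15.9% in the others, and Gpr183 from 14.5% to 18.5% and 21.8%. The deepest bins, with medians of 10896 and 12984 UMIs, can include doublets, and their part in these shares was not tested.

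Free RNA was judged from barcodes with at least 3 stromal, endothelial or epithelial markers, cells that should lack most of these receptors. There were 5 such barcodes in WT (median 10319 UMIs) and 13 in Pac1-/- (median 2735 UMIs), against medians of 4445 and 5784 in the others. Cd69 was seen in 3 of 5 and 5 of 13 of them, Ccr2 in 2 and 2, Cxcr6 in 1 and 2, Gpr183 in 1 and 1 and Cxcr4 in 0 and 1. Ccr4, Ccr8, Ccr9 and Itgae were seen in 0 of 5 and 0 of 13, which allows shares of up to 60% and 23.1% by the limit of 3 counts of the total. The ILC2 gene Il1rl1 was also seen in 3 of 5 and 5 of 13, so these barcodes held ILC2 transcripts too and are a poor measure of background. At 0.210% of WT barcodes (0.120 to 0.340) and 0.229% of Pac1-/- barcodes (0.128 to 0.377), Itgae could not be told from background at this number of cells.

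By the GENCODE M21 annotation of GRCm38, all 9 genes are protein-coding, and 5 of them lie on chromosome 9. Ccr9 (chr9:123678439-123784330), Cxcr6 (chr9:123806475-123811760) and Ccr2 (chr9:124101950-124113557) fall within 435119 bases, while Ccr4 (chr9:114490316-114504916) and Ccr8 (chr9:120092114-120094906) lie apart on the same chromosome. Cxcr4 is at chr1:128588199-128592293, Gpr183 at chr14:121952551-121965195, Itgae at chr11:73090583-73147446 and Cd69 at chr6:129267325-129275436. Ccr9 is overlapped on the opposite strand by Lztfl1 and Slc6a20a and on its own strand by Gm17200 and Gm17020, and its counts are uncertain to that degree. Cxcr6 is overlapped on the opposite strand by Fyco1, Gpr183 by Ubac2 and Itgae by Haspin.

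Promoters were looked up for the 5 genes on which the comparisons that follow turn, those that differed between genotypes (Ccr8 and Gpr183) and those that differed by Il5 status (Cxcr4, Cxcr6, Ccr4 and again Ccr8). The table of promoters, from RefSeq on GRCm38.p6, matched 7 of the 9 genes. The 250 bases before each start in that table are given 5′ to 3′ on the gene's own strand. For Ccr4 this window lies inside the GENCODE span given above, so it is not upstream of that span. Capitals mark matches, on either strand, to 3 short motifs. TGACG is the core of the CRE, a longer site bound by factors that answer to cyclic AMP. The AP-1 site, TGANTCA, is bound by Fos and Jun proteins. The GATA site, AGATAA, is bound by the GATA factors, of which ILC2s depend on GATA3.
Ccr8, chr9:120091883-120092132, plus strand: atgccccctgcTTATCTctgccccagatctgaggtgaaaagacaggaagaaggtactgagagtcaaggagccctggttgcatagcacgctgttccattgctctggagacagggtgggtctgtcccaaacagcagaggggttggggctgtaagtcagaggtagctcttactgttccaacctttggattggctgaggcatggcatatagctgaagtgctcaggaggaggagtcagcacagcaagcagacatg
Gpr183, chr14:121965194-121965443, minus strand: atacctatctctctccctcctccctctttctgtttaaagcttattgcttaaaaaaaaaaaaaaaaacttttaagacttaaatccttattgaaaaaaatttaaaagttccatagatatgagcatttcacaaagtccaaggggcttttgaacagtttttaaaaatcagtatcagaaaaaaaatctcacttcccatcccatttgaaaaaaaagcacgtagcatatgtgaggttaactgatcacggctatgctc
Cxcr4, chr1:128592300-128592549, minus strand: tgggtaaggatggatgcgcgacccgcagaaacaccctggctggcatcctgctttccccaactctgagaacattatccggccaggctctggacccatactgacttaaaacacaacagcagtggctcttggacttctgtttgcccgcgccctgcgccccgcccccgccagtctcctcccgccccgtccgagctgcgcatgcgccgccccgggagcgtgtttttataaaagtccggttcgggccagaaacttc
Cxcr6, chr9:123806227-123806476, plus strand: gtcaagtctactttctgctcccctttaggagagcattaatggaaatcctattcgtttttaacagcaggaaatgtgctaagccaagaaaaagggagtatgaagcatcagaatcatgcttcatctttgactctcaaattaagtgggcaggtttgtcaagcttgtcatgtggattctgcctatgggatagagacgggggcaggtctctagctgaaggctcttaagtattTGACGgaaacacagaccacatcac
Ccr4, chr9:114496545-114496794, minus strand: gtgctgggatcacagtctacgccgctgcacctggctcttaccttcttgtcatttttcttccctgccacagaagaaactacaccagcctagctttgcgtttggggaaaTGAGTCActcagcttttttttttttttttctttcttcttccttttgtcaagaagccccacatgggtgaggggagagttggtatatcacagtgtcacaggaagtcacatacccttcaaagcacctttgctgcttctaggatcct
Ccr8 had 1 GATA match, on the opposite strand, at base 12, Cxcr6 had 1 CRE core at base 227 and Ccr4 had 1 AP-1 match at base 108, counted from the 5′ end. These letters were not in the windows of Cxcr4 and Gpr183. Among 32536 promoters of the same length, 17.9% held the CRE core, 6.73% the AP-1 site and 9.97% the GATA site, and a match is a description of letters, not of binding. By base composition the Cxcr4 window was 61.2% and the Gpr183 window 32% G or C.

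The comparison of genotypes asked which of these receptors differed in ILC2s that lack PAC1. Ccr8 and Gpr183 were lower in Pac1-/-, and the other 7 genes lay within 1.5-fold of WT. Ratios are given relative to the median of the 12427 genes with at least 50 UMIs, which itself stood 0.19 higher on the log2 scale in Pac1-/- as counted, and a gene past 1.5-fold of that median is called higher or lower. By this rule 0 of the 9 genes were higher, against 8.22% of all genes tested, and 2 were lower, against 12.8%. The median of the 9 genes was -0.01. The set as a whole did not stand apart from other genes by these counts.

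Ccr8 had 6446 UMIs in WT and 3496 in Pac1-/-, and it was 2.24-fold lower in Pac1-/- (log2 ratio -1.17, -1.23 to -1.11). The difference was also seen in the share of barcodes, 14.4% of WT (13.6 to 15.2) against 7.65% of Pac1-/- (7.02 to 8.32), and in the share with 2 or more UMIs, 1.61% against 0.838%. Gpr183 had 9911 and 5818 UMIs, was 2.07-fold lower (-1.05, -1.10 to -1.01), and was seen in 18.2% of WT (17.4 to 19.1) and 11.8% of Pac1-/- barcodes (11.1 to 12.6). Among all genes tested, Ccr8 stood at the 3.46th and Gpr183 at the 4.47th percentile of the ratio. Fewer positive cells and less RNA per cell would both lower a sum over barcodes, and in sparse counts a share does not separate them.

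Cxcr4 and Ccr9 were higher in Pac1-/- by less than 1.5-fold. Cxcr4 had a log2 ratio of 0.38 (0.31 to 0.44) and was seen in 6.89% of WT (6.33 to 7.48) and 9.48% of Pac1-/- barcodes (8.78 to 10.2). Ccr9 had a log2 ratio of 0.26 (0.19 to 0.34) and was seen in 6.0% (5.48 to 6.56) and 8.36% (7.71 to 9.06). Cxcr6 stood at -0.13 (-0.16 to -0.10) relative to the median gene and at 0.06 as counted, so its direction depended on the scale. Ccr2 stood at 0.01 (-0.01 to 0.03) and Cd69 at -0.01 (-0.03 to 0.00), whereas both were higher by 0.19 and 0.17 as counted, near the shift of all genes. Ccr4 stood at 0.05 (-0.06 to 0.16) and was seen in 2.54% and 3.21% of barcodes. For Itgae the interval was wide, at -0.30 (-0.73 to 0.13).

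**Figure D2:**
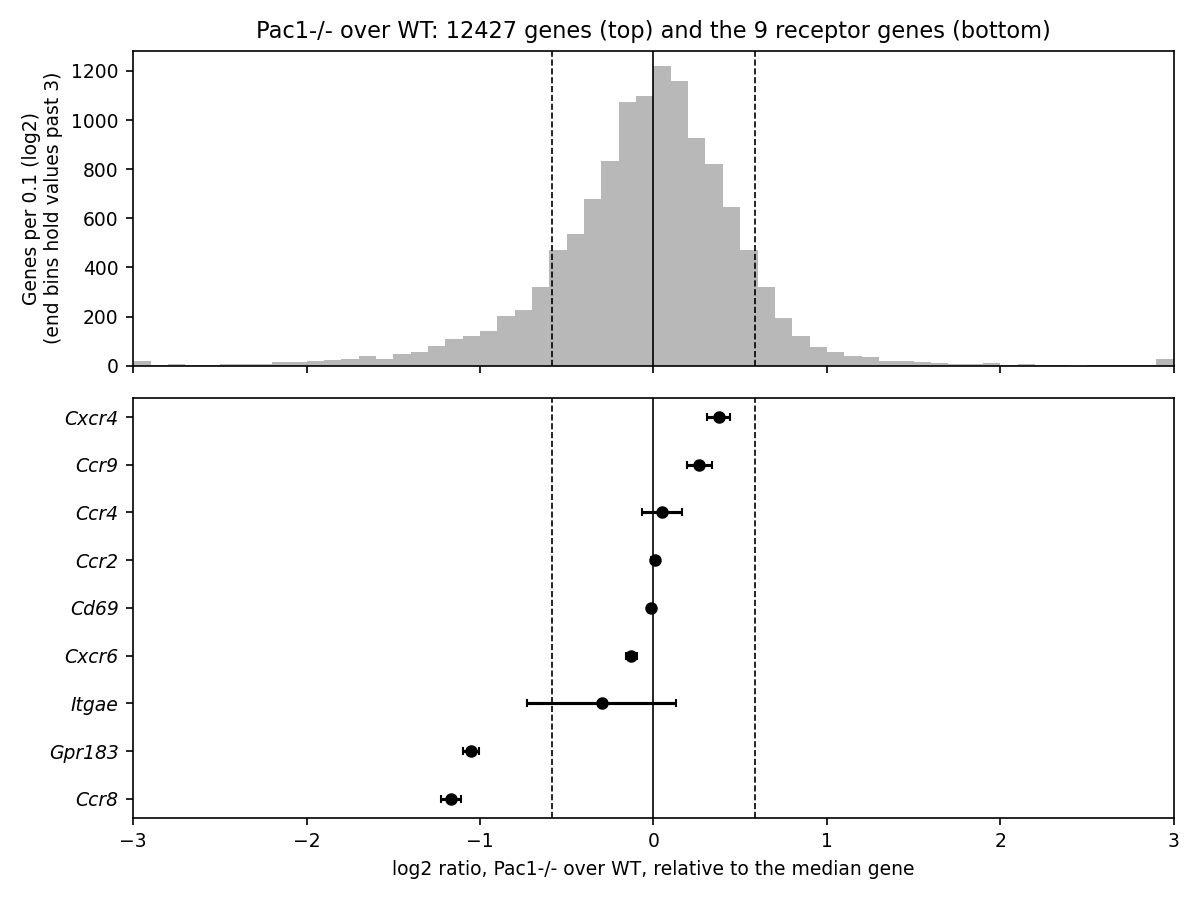
Top, number of genes per 0.1 step of the log2 ratio of Pac1-/- over WT relative to the median gene, for 12427 genes; bottom, the same ratio for the 9 genes with 95% counting intervals; the solid line marks the median gene and dashed lines 1.5-fold. Ccr8 (-1.17) and Gpr183 (-1.05) lie left of the lower dashed line, and the other 7 points lie between the lines.

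The Ccr8 and Gpr183 ratios were similar over the range of depth. With barcodes of both libraries split into 3 equal bins by their UMIs, 3444 WT and 1289 Pac1-/- barcodes fell into the shallowest bin, where Ccr8 stood at -1.09 (-1.43 to -0.76). It stood at -1.25 (-1.49 to -1.02) in the middle and -1.20 (-1.44 to -0.96) in the deepest bin. Gpr183 stood at -1.0 (-1.26 to -0.75), -0.98 (-1.16 to -0.80) and -1.08 (-1.27 to -0.90). Cxcr4 stood at 0.33, 0.28 and 0.39 in the same bins. Cd69 was at -0.01, 0.21 and 0.00, so that its middle bin alone, with an interval of 0.15 to 0.27, lay apart from the median gene.

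Genes of the same pathways gave a setting for these values. Over all genes tested, 8.22% were higher and 12.8% lower in Pac1-/-. Of 17 other chemokine receptors, 7 had 50 or more UMIs, of which 0 were higher and 5 lower in Pac1-/-, with a median of -0.83. Among the 10 below that minimum, Ccr10 had 0 UMIs in WT and 24 in Pac1-/-, and Ackr3 had 0 and 17. The intervals of both lay past 1.5-fold higher, and none of these 10 receptors had an interval wholly past 1.5-fold lower. Xcr1, the receptor for XCL1, stood at -2.17 (3.79 and 0.960 CPM), Ccr1 at -1.83 (6.14 and 1.97 CPM) and Cx3cr1, the receptor for fractalkine, at -1.49 (3.65 and 1.47 CPM). The atypical receptor Ccrl2 stood at -0.72 (78.5 and 54.4 CPM), and Ccr3, the eotaxin receptor, at -0.83 from 35 and 24 UMIs, with an interval of -1.64 to -0.04. All of these but Ccrl2 were at levels far below Ccr8. Xcr1 lies 40555 bases from Cxcr6 and Cx3cr1 lies 22235 bases from Ccr8, while Cxcr6 itself was within 1.5-fold and Ccr8 was not.

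Of 14 genes for ligands of these receptors or for enzymes that make or break down such ligands, 4 were tested, of which 0 were higher and 2 lower. Ccl1, the ligand of Ccr8, was abundant in the ILC2s themselves, at 774 CPM in WT and 449 CPM in Pac1-/- (log2 ratio -0.97, -0.99 to -0.95). Ligand and receptor were therefore both lower in the Pac1-/- library. Cdh1, which encodes E-cadherin, the partner of CD103, stood at -1.84 at about 1 CPM or less (1.03 and 0.326 CPM). Ccl25, the Ccr9 ligand, stood at 0.42 (10.4 and 16.0 CPM).

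Of 16 integrin and adhesion genes, 13 were tested, with 0 higher, 2 lower and a median of -0.13. Over all genes tested, 8.22% were higher and 12.8% lower. The lower counts of the adhesion list and of the signalling list below lay near that share. The hyaluronan receptor Cd44 stood at -0.86 (501 and 314 CPM) and the β2 chain Itgb2 at -0.85 (81.0 and 51.2 CPM). Itgb7, the chain with which Itgae pairs, stood at 173 and 180.0 CPM, so the β7 chain was about as high as Gpr183 in WT while its CD103 partner was below 2 CPM. Of 10 egress and residency genes, 8 were tested, with 1 higher and 3 lower. Klf2, which drives S1pr1 transcription in lymphocytes, was higher at 1.27 (96.5 and 264 CPM), whereas S1pr1 was lower at -0.82 (7.86 and 5.07 CPM). Runx3 stood at -0.99 (242 and 139 CPM) and Prdm1, which encodes Blimp-1, at -1.17 (42.7 and 21.6 CPM), both known for residency programmes in T cells. Of 11 signalling genes found, 0 were higher and 2 lower: Rgs16 at -0.87 (17.4 and 10.8 CPM) and Rgs2 at -0.64 (2397 and 1754 CPM), regulators that shorten G protein signalling.

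The comparison by Il5 status asked which receptors marked the barcodes that held transcripts of this cytokine. At 1500 UMIs per barcode, 2519 of 7634 WT barcodes (33.0%) and 1284 of 6564 Pac1-/- barcodes (19.6%) held an Il5 UMI. With all UMIs of the kept barcodes, these shares were 53.1% and 39.5%. Part of the Il5-negative barcodes therefore held Il5 transcripts that thinning removed. Positive barcodes had been deeper before thinning, at medians of 5552 against 4133 UMIs in WT and 7444 against 5584 in Pac1-/-. The summed ILC2 markers were also higher in them, at 6550 against 4911 CPM in WT and 6294 against 4785 CPM in Pac1-/-. In Pac1-/- the summed ILC3 markers stood at 23.9 against 3.66 CPM, erythroid markers at 39.5 against 258 CPM and myeloid markers at 1.56 against 19.7 CPM. In WT, epithelial markers stood at 38.1 against 125 CPM and B cell markers at 43.1 against 77.5 CPM. Erythroid markers stood at 66.4 against 34.5 CPM in WT, the reverse of their Pac1-/- direction. Epithelial markers were also reversed in Pac1-/-, at 164 against 104 CPM. Endothelial markers were higher with Il5 in both libraries, at 57.4 against 32.2 CPM in WT and 55.0 against 35.9 CPM in Pac1-/-. The part of the ILC2 markers in the receptor values was not tested. Without barcodes that held 2 or more markers of another type, the calls that follow were made for the same 4 genes. Cxcr4, Cxcr6, Ccr4 and Ccr8 were past 1.5-fold higher in Il5-positive barcodes of both libraries. That is 4 of the 8 genes with enough UMIs, against 4.4% of the 8616 genes tested in both libraries, and 0 genes were lower against 1.39%. The genes were listed with earlier results of these data known, so these shares describe the list and do not test it. Within a single library, 6.57% of genes were higher and 5.72% lower in WT, and 8.34% higher and 8.31% lower in Pac1-/-.

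Cxcr6 was seen in 41.2% of Il5-positive (39.2 to 43.1) and 28.0% of Il5-negative WT barcodes (26.7 to 29.2), and in 43.8% (41.1 to 46.6) against 31.4% (30.1 to 32.7) in Pac1-/-. Its log2 ratio was 0.86 (0.77 to 0.96) in WT and 0.88 (0.76 to 0.99) in Pac1-/-, nearly the same in both. Cxcr4 was seen in 9.49% (8.37 to 10.7) against 5.61% (5.0 to 6.28) in WT and in 14.3% (12.5 to 16.4) against 8.30% (7.57 to 9.07) in Pac1-/-, with ratios of 0.90 (0.66 to 1.15) and 1.09 (0.86 to 1.31). Ccr8 was seen in 17.9% (16.5 to 19.5) against 12.6% (11.7 to 13.6) in WT and in 10.7% (9.11 to 12.6) against 6.89% (6.23 to 7.61) in Pac1-/-, with ratios of 0.72 (0.56 to 0.89) and 0.90 (0.63 to 1.17). Ccr4 was seen in 3.26% against 2.19% in WT and 4.60% against 2.88% in Pac1-/-, with ratios of 0.73 (0.32 to 1.14) and 0.88 (0.44 to 1.31). The Pac1-/- library thus showed the same 4 genes with Il5, although Ccr8 was lower in it overall.

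These calls were not equally firm. In 20 further random thinnings, Cxcr6 was past 1.5-fold in both libraries in 20, Ccr8 in 18 and Cxcr4 in 17, but Ccr4 in only 6, with medians of 0.54 in WT and 0.67 in Pac1-/-. The median gene was lower in Il5-positive barcodes by 0.18 in WT and 0.20 in Pac1-/- as counted, and without that shift Cxcr4 (0.73 and 0.89) and Cxcr6 (0.69 and 0.68) were past 1.5-fold in both libraries while Ccr8 (0.55 and 0.71) and Ccr4 (0.56 and 0.68) were not. With all UMIs and no thinning, Cxcr4 and Ccr8 were past it in both libraries, and Cxcr6 stood at 0.69 in WT and 0.50 in Pac1-/-.

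The other 4 genes with enough UMIs lay within 1.5-fold by Il5 status. Gpr183 stood at 0.34 (0.20 to 0.47) in WT and 0.22 (-0.01 to 0.45) in Pac1-/-. Ccr2 stood at -0.02 and -0.05, and Ccr9 at -0.07 and 0.04. Cd69 stood at -0.16 (-0.21 to -0.10) and -0.10 (-0.16 to -0.04), and was seen in 57.7% of Il5-positive against 64.1% of Il5-negative WT barcodes and in 62.8% against 64.9% in Pac1-/-. Without thinning, Cd69 stood at 0.02 and 0.16, so its direction depended on depth. Itgae was seen in 3 of 2519 Il5-positive WT barcodes and in 0 of 1284 in Pac1-/-, which allows a share of up to 0.234% by the same limit, against 15 of 5280 Il5-negative Pac1-/- barcodes.

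**Figure D3:**
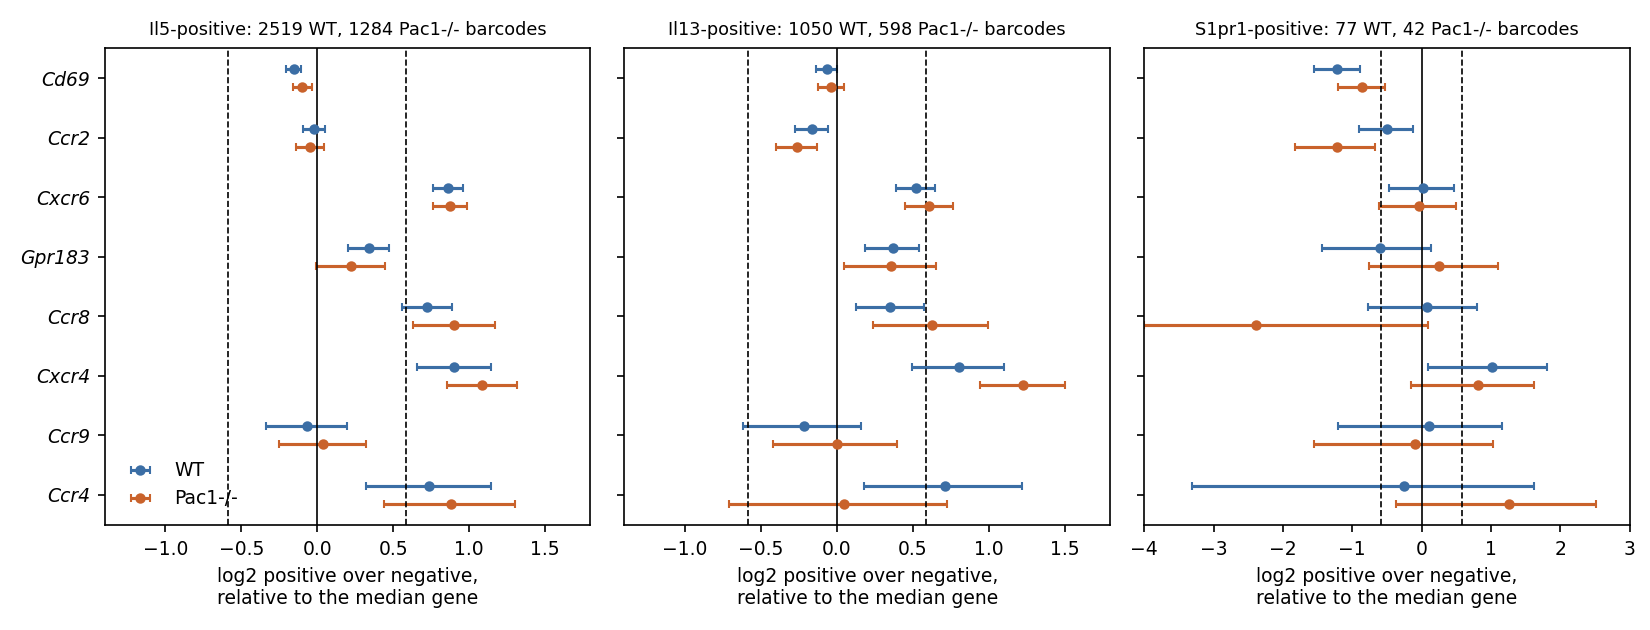
Log2 ratio of positive over negative barcodes relative to the median gene for 8 genes, split by a UMI of Il5 (left), Il13 (middle) or S1pr1 (right), with WT in blue, Pac1-/- in orange, 95% counting intervals and dashed lines at 1.5-fold; the right axis is wider, and 1 interval runs past its left end. In the Il5 panel Cxcr6, Ccr8, Cxcr4 and Ccr4 lie right of the dashed line in both libraries, from 0.72 to 1.09.

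Il13 was found in fewer barcodes, 1050 of 7634 in WT (13.8%) and 598 of 6564 in Pac1-/- (9.11%). With all UMIs of the kept barcodes, these shares were 28.8% and 21.4%, so part of the Il13-negative barcodes held Il13 before thinning. Positive barcodes had been deeper, at medians of 5168 against 4350 UMIs in WT and 7454 against 5706 in Pac1-/-. The summed ILC2 markers stood at 6525 against 5281 CPM and 6279 against 4960 CPM, and the summed ILC3 markers at 3.17 against 2.43 CPM in WT and 52.4 against 3.13 CPM in Pac1-/-. Epithelial markers stood at 33.0 against 107 CPM in WT and 44.6 against 122 CPM in Pac1-/-. In Pac1-/-, erythroid markers stood at 44.6 against 232 CPM and myeloid markers at 1.11 against 17.7 CPM. Endothelial markers were higher with Il13 in both libraries, at 53.3 against 38.5 CPM in WT and 73.6 against 36.2 CPM in Pac1-/-. The part of depth and of the ILC2 markers in the receptor values was not tested, and the call that follows was also made without barcodes that held 2 or more markers of another type. Only Cxcr4 was past 1.5-fold higher in both libraries, 1 of 8 genes against 2.07% of genes tested, and 0 were lower against 2.66%. Within a single library, 4.49% of genes were higher and 9.19% lower in WT, and 9.32% higher and 13.2% lower in Pac1-/-. It was seen in 10% of Il13-positive (8.25 to 12.0) and 6.39% of Il13-negative WT barcodes (5.82 to 7.01), and in 16.4% (13.5 to 19.6) and 8.78% (8.08 to 9.53) in Pac1-/-. Its ratios were 0.80 (0.50 to 1.10) and 1.23 (0.94 to 1.51). The call was made in 13 of 20 further thinnings, in which the median ratios were 0.62 (range 0.38 to 0.75) in WT and 0.83 (range 0.42 to 1.04) in Pac1-/-. Both values given above lie beyond those ranges and are thus high for this gene. The call was lost at 3000 UMIs (0.47 in WT and 0.72 in Pac1-/-) and with no thinning (0.51 and 0.55), and Cxcr4 with Il13 is less firm than Cxcr4 with Il5.

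Cxcr6 stood at 0.52 (0.39 to 0.65) and 0.61 (0.45 to 0.76) by Il13 status, on either side of the 1.5-fold line, and was past it in both libraries in 4 of 20 thinnings. Ccr8 stood at 0.35 (0.12 to 0.57) and 0.63 (0.24 to 1.0). Ccr4 stood at 0.71 (0.18 to 1.22) and 0.05 (-0.71 to 0.73) from 40 and 19 UMIs in positive barcodes, and was past the line in both libraries in 12 of 20 thinnings. Its Pac1-/- value lies below all 20, whose median was 0.83 (range 0.53 to 1.28), and the WT median was 0.68 (range 0.40 to 0.96), so no call either way rests on it. Ccr2 stood at -0.17 (-0.28 to -0.06) and -0.26 (-0.40 to -0.13). Over the 20 further thinnings its median was -0.06 in WT, with a range of -0.16 to 0.01 that does not reach the printed value, and -0.23 in Pac1-/-, with a range of -0.42 to -0.15, so that a lower value was steady in Pac1-/- alone. It was seen in 45.4% of positive against 51.5% of negative WT barcodes and in 44.3% against 55.7% in Pac1-/-. Gpr183 stood at 0.37 and 0.36, and Cd69 at -0.07 and -0.04. Without thinning, Cd69 stood at 0.08 and 0.12, so its direction by Il13 status also depended on depth.

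With both cytokines considered, Cxcr6 was seen in 27.3% of the 4600 WT barcodes with neither (26.0 to 28.6), 40.2% of the 1984 with Il5 alone (38.0 to 42.4), 33.6% of the 515 with Il13 alone (29.5 to 37.9) and 44.9% of the 535 with both (40.6 to 49.2). In Pac1-/- the values were 31.1% of 4942, 42.3% of 1024, 35.2% of 338 and 50% of 260. Cxcr6 thus ran in the same order in both libraries, with intervals that did not overlap between neither and both. Cxcr4 was seen in 5.33%, 8.87%, 8.16% and 11.8% of these WT classes and in 7.71%, 14.0%, 16.9% and 15.8% in Pac1-/-, where the last 3 intervals overlapped. Cd69 was lowest in barcodes with both, at 54.8% in WT (50.4 to 59.0) and 56.9% in Pac1-/- (50.7 to 63.0), and highest in those with Il13 alone, at 66.0% (61.7 to 70.1) and 68.9% (63.7 to 73.8). These classes were taken at 1 depth only, so barcodes with neither include some whose Il5 or Il13 UMIs thinning removed. The direction of Cd69 by either cytokine depended on depth.

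**Figure D4:**
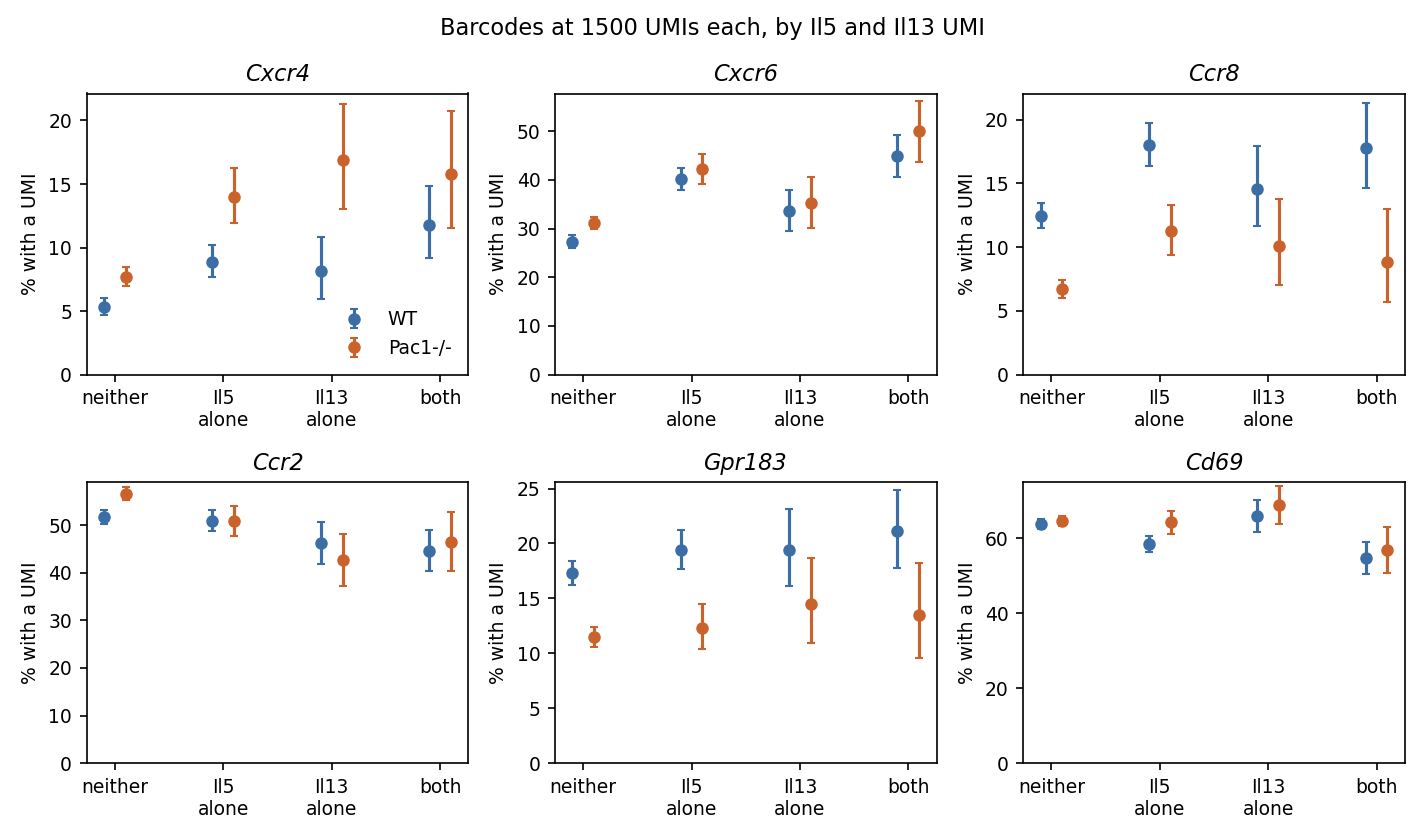
Percentage of barcodes with a UMI of each of 6 genes after thinning to 1500 UMIs, for barcodes with neither cytokine, Il5 alone, Il13 alone or both, WT in blue and Pac1-/- in orange, with 95% counting intervals; vertical axes start at 0 and differ between panels. Cxcr6 runs from 27.3% to 44.9% in WT and from 31.1% to 50% in Pac1-/-, and the Ccr8 and Gpr183 points of Pac1-/- lie below those of WT in each class.

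Since fewer Pac1-/- barcodes held Il5, the genotypes were also compared within each status. Ccr8 was lower in Pac1-/- by -0.84 (-1.10 to -0.58) among Il5-positive and -1.05 (-1.23 to -0.88) among Il5-negative barcodes, at 137 against 82.6 CPM and 94.1 against 50.6 CPM. By Il13 status it stood at -0.80 (-1.23 to -0.40) and -1.11 (-1.27 to -0.96). Gpr183 stood at -0.95 (-1.18 to -0.72) and -0.87 (-1.0 to -0.74) by Il5 status and at -0.89 and -0.91 by Il13 status. Both genes were thus lower in barcodes with and without a UMI of either cytokine after thinning. Cxcr4 was higher by 0.73 (0.47 to 0.99) among Il5-positive and 0.51 (0.31 to 0.72) among Il5-negative barcodes, and by 0.88 (0.50 to 1.26) and 0.42 (0.25 to 0.60) by Il13 status. The Il5-positive and Il13-positive values were past 1.5-fold, while the intervals of positive and negative barcodes overlapped. The Il13-positive value is from the thinning whose Cxcr4 ratios by Il13 status lay above the range of the 20 further thinnings. Whether it is past 1.5-fold in those was not tested.

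S1pr1, the receptor that leads cells out of tissue and that CD69 opposes, was too rare for a firm comparison: 77 WT barcodes (1.01%) and 42 Pac1-/- barcodes (0.640%) held a UMI. In positive WT barcodes, Cd69 was seen in 48.1% (36.5 to 59.7) against 62.1% (61.0 to 63.2) of negative ones, but in Pac1-/- in 71.4% (55.4 to 84.3) against 64.4% (63.3 to 65.6). By level it stood at 667 against 1357 CPM in WT and 1222 against 1525 CPM in Pac1-/-. Share and level thus gave opposite directions in Pac1-/-. Cxcr4 was seen in 13% (6.41 to 22.6) against 6.83% in WT and 21.4% (10.3 to 36.8) against 9.40% in Pac1-/-, from 13 and 12 UMIs.

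Relative to the median gene, Cd69 was past 1.5-fold lower in both libraries (-1.22 and -0.86) and Cxcr4 past it higher (1.02 and 0.81), 1 of 8 genes each way, against 9.16% of genes lower and 15.2% higher. Within a single library, 26.3% of genes were higher and 22.3% lower in WT, and 32.4% higher and 28.1% lower in Pac1-/-. In 20 further thinnings Cxcr4 was past it in both libraries in 1, with medians of 0.35 and 0.02, Cd69 in 15 and Ccr2, which was lower, in 13. The median itself was set in part by genes with no UMI in so few barcodes, which made up 17.9% and 26.1% of genes tested and were placed at a floor of 3 counts. With genes limited to those for which 10 or more UMIs would be expected in positive barcodes, a limit chosen after the data were seen, Cxcr4 was no longer tested, Cd69 stood at -1.03 and -0.28, and 0 of the 3 members tested in both libraries (Cxcr6, Ccr2 and Cd69) were past 1.5-fold in the same direction in both. With all UMIs and no thinning, where 321 and 193 barcodes were positive, Cd69 stood at -0.11 and -0.12. Markers of B cells summed to 251 CPM in S1pr1-positive against 64.3 CPM in negative WT barcodes and to 1048 against 82.2 CPM in Pac1-/-. Without barcodes that held 2 or more markers of another type, 72 WT and 31 Pac1-/- barcodes were positive, where Cxcr4 stood at 1.11 and 0.26 and Cd69 at -1.19 and -1.11. No difference in any receptor by S1pr1 status is called from these data.

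Joint detection showed which receptors occurred in the same barcodes. At matched depth a barcode held UMIs of a median of 2 of the 9 genes, and none was found in 7.31% of barcodes in WT and 6.57% in Pac1-/-. Of the 36 pairs, 28 had both genes in at least 1% of barcodes, and observed over expected joint counts ran from 0.539 to 1.49. Cxcr4 and Ccr8 were the 1 pair found together more often than expected, with an interval above equality, in both libraries: 100 WT barcodes against 75.7 expected (ratio 1.32, 1.07 to 1.61) and 71 Pac1-/- barcodes against 47.6 (1.49, 1.17 to 1.88). Cxcr4 with Ccr2 (0.871 and 0.868) and Cxcr6 with Cd69 (0.897 and 0.924) were found together less often in both. Cd69 was seen in 55.6% of Cxcr6-positive against 65.0% of Cxcr6-negative WT barcodes and in 59.5% against 67.0% in Pac1-/-.

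The other 25 pairs did not have intervals on the same side of equality in both libraries. The lowest value, 0.539 for Cxcr4 with Ccr9 in WT (17 barcodes against 31.6 expected), was 1.11 in Pac1-/- (58 against 52.0). Cxcr4 with Gpr183 was at 1.20 (0.989 to 1.44) in WT and 1.43 (1.17 to 1.73) in Pac1-/-. These intervals treat barcodes as separate draws from 1 library and cannot show how the ratios vary between animals. Pairs were counted in 1 thinning, the one in which Cxcr4 ratios by Il13 status were high, and were not repeated in the further thinnings.

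**Figure D5:**
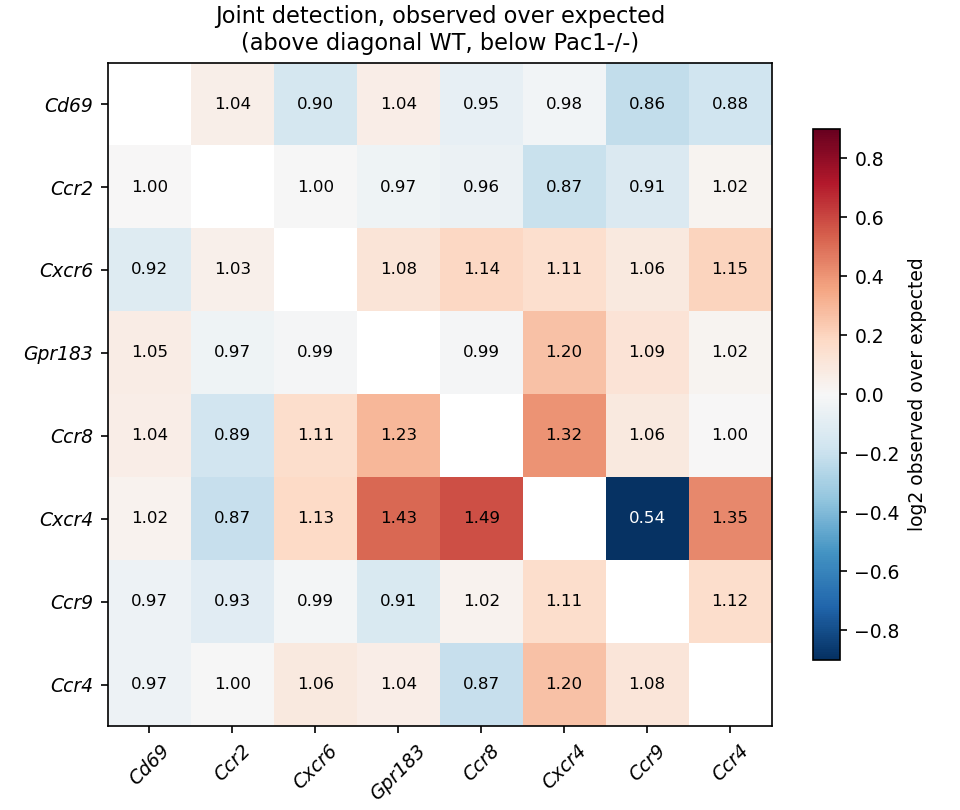
Observed over expected number of barcodes with UMIs of both genes, at 1500 UMIs per barcode, above the diagonal for WT and below it for Pac1-/-; colour is the log2 of the printed ratio. Cxcr4 with Ccr8 is above equality on both sides (1.32 and 1.49), and Cxcr6 with Cd69 is below it on both sides (0.90 and 0.92).

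For the 7 members found in at least 5% of barcodes of both libraries, the genes with the most similar pattern were taken as those of highest Pearson correlation of log(1 + UMIs) across 7634 WT and 6564 Pac1-/- barcodes, among 3212 genes. Barcodes of a library share its depth and free RNA, so these correlations are descriptions. Cd69 was most like the AP-1 gene Fos (r = 0.34 in WT and 0.37 in Pac1-/-), the stress-response gene Gadd45b (0.31 and 0.34) and Fosb (0.31 and 0.36). Cd69 was seen in 68.2% of WT barcodes with a Fos UMI against 42.4% without, and in 70.5% against 42.5% in Pac1-/-. It was the 1 receptor gene with correlations above 0.3. The parts of retention, of cell activation and of the enzyme digestion of lung in the Cd69 values were not tested.

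The other members had correlations below 0.2, too weak to be a finding in counts this sparse. Cxcr6 was most like Il5 (r = 0.17 and 0.15), followed by Crem (0.15 and 0.15), a gene induced by cyclic AMP, and Hilpda (0.15 and 0.14), a lipid droplet gene. Cxcr4 was most like Rgs2 (0.12 and 0.14), Rora and H3f3b, and Ccr8 most like Hilpda (0.12 and 0.12), Rgs2 and Zfp36l1. Rgs2 was thus on the lists of both Cxcr4 and Ccr8, and Hilpda on those of Cxcr6 and Ccr8. Ccr2 was nearest Gimap3, Il7r and Actb, and Gpr183 nearest Nfkbia, Pim1 and Nr4a1. Ccr9 was nearest Lztfl1 (0.08 and 0.05), the gene that overlaps it on the opposite strand, and was seen in 8.99% of WT barcodes with an Lztfl1 UMI against 5.18% without, and in 9.67% against 7.65% in Pac1-/-. Whether reads were placed on the wrong one of these overlapping genes was not tested.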

How the data were processed

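The deposited matrices hold unnormalized UMI counts from 10x Genomics 3′ libraries (kit v3.1), which the authors had made by alignment to mm10 with Cell Ranger, version 6.1.1 in the submitters' processing notes and 4.0.0 in the file headers; the annotation release was not given in the sources used here. Under 500 genes were detected in 2403 WT and 2110 Pac1-/- barcodes, and over 10% of UMIs were mitochondrial in 171 and 441. These were left out (102 and 143 met both conditions).

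Computation used Python 3.11.15, numpy 2.4.6, scipy 1.17.1, pandas 2.3.3 and matplotlib 3.10.9. CPM carry exact Poisson intervals, shares Clopper-Pearson intervals and ratios exact conditional binomial intervals, all at 95%. Only the ratio intervals were checked on simulated counts, which were drawn by the Poisson model that they assume. For shares, UMIs were drawn without replacement to 1500 per barcode, which left out 760 WT and 523 Pac1-/- barcodes. A barcode was positive for Il5, Il13 or S1pr1 with at least 1 UMI after thinning, and a ratio by status was computed within each library. Genes with at least 50 UMIs over both sides were tested for the 1.5-fold limit, and the status gene was left out. Named genes of the pathway lists were up to 6 per list past 1.5-fold, by size. Itgb7, Ccl25, Ccl2, Ccr10, Ackr3 and the overlapping and neighbouring genes were added after their values were seen. The members and lists were chosen with earlier results of these data known. Alternatives changed the barcode filters, depth, scaling and gene minimum.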

Additional observations from a re-analysis of the deposited data

How the results depend on the processing

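No paired analysis was possible because each genotype had 1 library. Between genotypes, Ccr8 and Gpr183 were past 1.5-fold lower, and 0 members higher, under all 8 alternatives tried, with ranges of -1.17 to -0.98 for Ccr8 and -1.06 to -0.86 for Gpr183. By Il5 status the count of members higher in both libraries was 4, and it was 2 with ratios as counted, 2 with no thinning and 3 as the median of 20 thinnings (2 to 4). By Il13 status it was 1, and it was 2 without barcodes over 2 times the median UMIs, 2 at 1000 UMIs, 1.5 as the median of 20 thinnings (0 to 3), in which Ccr4 was called in 12, and 0 with no thinning. At 3000 UMIs it was again 1, but the member was Ccr4, not Cxcr4. By S1pr1 status, 1 member was higher and 1 lower. The higher count was 0 without barcodes with markers of other cells, with barcodes holding Il1rl1 or Gata3, at 1000 and at 3000 UMIs, with no thinning, as the median of 20 thinnings and with the limit of 10 expected UMIs. With a minimum of 10 UMIs per gene it was 1, but the member was Itgae, from floored counts, and Cxcr4 stood at 0.71 in WT and 0.39 in Pac1-/-. The lower count was 2 without barcodes over 2 times the median UMIs, with a minimum of 10 UMIs per gene, at 1000 UMIs and as the median of 20 thinnings, and 0 as counted, at 3000 UMIs, with no thinning and with 10 expected UMIs. Called values changed sign by S1pr1 status alone: Cxcr4 in Pac1-/- at 1000 UMIs (-0.68), Gpr183 in WT at 3000 UMIs (0.052) and with no thinning (0.20), and Ccr8 in Pac1-/- with no thinning (0.082). The cause was not tested. Shares at full depth were higher, 79.1% and 81.9% for Cd69 and 39.1% and 29.7% for Ccr8 in WT and Pac1-/-. With 1 library per genotype, differences between mice, sorts and runs cannot be told apart from genotype.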

Other observations

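Barcodes with fewer than 500 detected genes but no excess of mitochondrial UMIs, which were left out of the report, also held the receptor transcripts. The 2301 such WT barcodes carried 1422325 UMIs and the 1967 of Pac1-/- carried 1267590. Ccr8 stood at 107 CPM (90.6 to 125) in WT and 73.4 CPM (59.2 to 89.9) in Pac1-/-, Gpr183 at 154 CPM (134 to 176) and 107 CPM (89.3 to 126), and Cxcr4 at 38.0 CPM (28.5 to 49.5) and 86.8 CPM (71.3 to 105). Cd69 stood at 1291 and 1188 CPM, the reverse of its order in the kept barcodes (1401 and 1581 CPM). Other genes were not measured in these barcodes.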
